A study of Mus musculus with 6 samples.

Results

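The 10 genes described here are 3 members of the N-myc downstream regulated family (Ndrg1, Ndrg2 and Ndrg3) and 7 genes of the cellular response to low oxygen (Hif1a, Epas1, Egln1, Egln3, Vegfa, Bnip3 and Ankrd37). They were taken by symbol from the 22274 genes of the deposited table, and each symbol had 1 row. RNA was sequenced from livers of C57 mice in 2 groups of 3 libraries. One group had been infected with Ad-Dyrk1b, an adenovirus that overexpresses mouse Dyrk1b, and the other with Ad-EGFP, the control adenovirus. Both groups therefore carry an adenovirus, and the labels give no age, sex, dose or time after infection. Dyrk1b is a dual-specificity protein kinase, which the series title links to glucose control by the liver. The list of 10 was drawn up with results of this same contrast known. Its levels, fold changes and calls are therefore a description, and no p-value is given for any of the 10.

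Cells sense oxygen through prolyl hydroxylases of the Egln family. With oxygen present these enzymes hydroxylate the alpha subunits of the hypoxia-inducible factors (HIF), HIF-1 alpha from Hif1a and HIF-2 alpha from Epas1, and the Vhl ubiquitin ligase then removes them. With little oxygen the alpha subunits persist, pair with Arnt and activate target genes, so the control lies mainly in protein stability and not in the mRNA of Hif1a or Epas1. Blood loses oxygen on its way through the liver lobule, and the hepatocytes around the central vein (pericentral) have the lowest supply. Ndrg1 is induced by hypoxia in many cell types and also by other stresses and by hormones, whereas Ndrg2 and Ndrg3 are related genes of the same fold family.

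Total counts ranged from 17326516 to 20024888 per library. Dyrk1b itself stood at 62.2, 100.65 and 96.5 FPKM (fragments per kilobase of gene, scaled to library size, as the authors deposited them) in Ad-Dyrk1b livers. The Ad-EGFP livers had 3.81, 4.97 and 4.16 FPKM, so the groups did not overlap, and the log2 fold change was 4.49 ± 0.24 (edgeR adjusted p = 1.33e-05). Here and below the 3 values of a group follow the order of its replicate numbers. Ad-Dyrk1b replicate 3 stood apart in blood transcripts. Haemoglobin genes made up 3613 CPM (counts scaled to library size) there, against 872 and 1020 CPM in the other Ad-Dyrk1b libraries and 513 to 860 CPM in the Ad-EGFP libraries. For this reason the fold changes of the 10 genes are also plotted without it. Of the hepatocyte markers (Alb, Ttr, Hnf4a and 5 others) none was at 0 in any library, and their summed level was 63638 to 78919 CPM in Ad-Dyrk1b and 80304 to 83498 CPM in Ad-EGFP livers.

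Across 13201 tested genes edgeR called 972 higher and 635 lower in Ad-Dyrk1b livers at an adjusted p under 0.05, which is 7.36% and 4.81% of the genes. Scaled to library totals alone, 694 were higher and 1051 lower, and with limma on log2(FPKM + 1) 556 were higher and 702 lower. All 10 genes passed the low-count filter. One of the 10, Ndrg1, was among the higher calls, and it was called under all 15 alternative settings. A fit with the replicate number as a block also called Egln3 higher. None of the 10 was among the lower calls, either here or under those settings. At an unadjusted p under 0.05 in edgeR, 2 of the 10 were higher and 0 lower, against 1970 and 1787 of all 13201 tested genes. Since the list was chosen on this contrast, nothing is read from the calls beside the 7.36% and 4.81% of all genes. Ndrg1 was likewise the 1 gene of the 10 whose FPKM values did not overlap between the groups, which held for 10.9% of all tested genes upward, 21.9% downward and 32.8% in all. The median log2 fold change (Ad-Dyrk1b over Ad-EGFP) of the 10 was 0.06, and that of all tested genes was -0.0050.

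**Figure D1:**
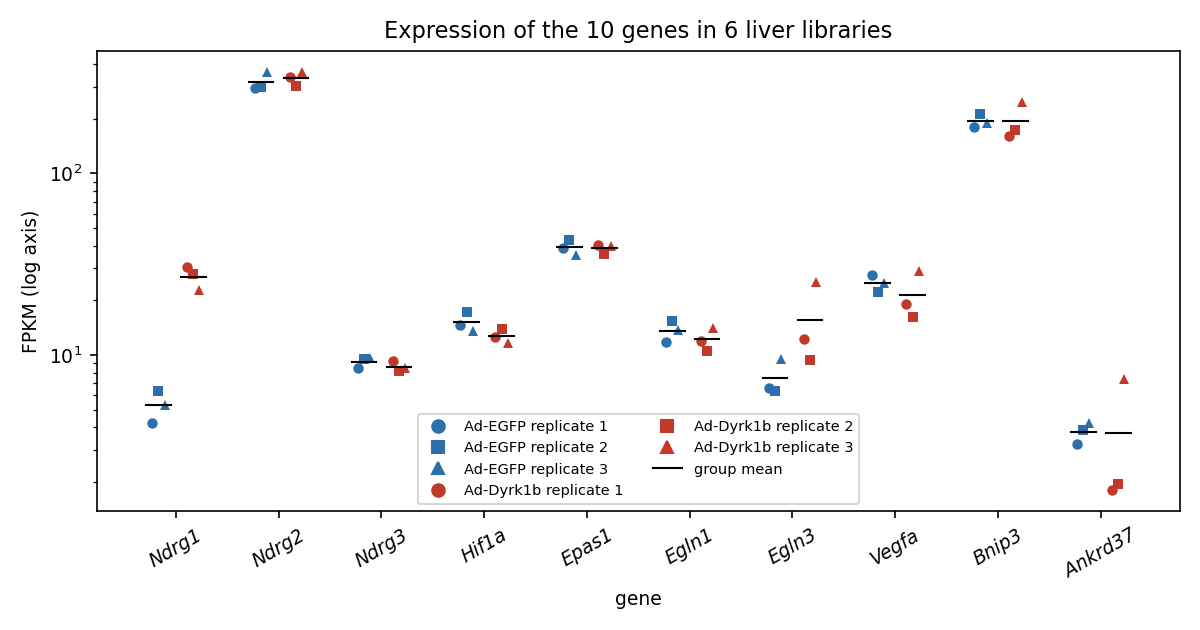
FPKM on a log axis for the 10 genes in each of the 6 libraries, with Ad-EGFP in blue, Ad-Dyrk1b in red, a marker shape for each replicate number and a black bar at each group mean. Ndrg1 is the gene with separate groups, and the red triangle of Ad-Dyrk1b replicate 3 lies above the other Ad-Dyrk1b libraries in Egln3, Vegfa, Bnip3 and Ankrd37.

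Ndrg1 (ENSMUSG00000005125, chromosome 15, 66929318 to 66969640, minus strand, mm10) was expressed about 5 times as strongly in Ad-Dyrk1b livers. It encodes a cytoplasmic stress-response protein that is known as a suppressor of metastasis and, when mutated, as a cause of a hereditary neuropathy. Its level was 30.4, 27.9 and 22.7 FPKM in Ad-Dyrk1b livers, against 4.26, 6.33 and 5.33 FPKM in Ad-EGFP livers. Every Ad-Dyrk1b library lay well above every Ad-EGFP library, and the lowest of the Ad-Dyrk1b group was replicate 3. The group means were 27.0 ± 3.92 and 5.31 ± 1.04 FPKM (SD, n = 3 each). The log2 fold change was 2.43 ± 0.15 (± standard error throughout), or 5.39-fold, and ranged from 2.31 to 2.56 with any 1 library left out. By size it ranked 59th among the 972 higher genes. The call was made under all 15 alternative settings tried. The authors' deposited table gives a log2 ratio of 2.35 for Ndrg1. Exons of 2 non-coding genes on the opposite strand overlap Ndrg1 and were not analysed here.

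Ndrg2 (ENSMUSG00000004558, chromosome 14, 51905271 to 51914158, minus strand) was the most abundant of the 10 genes and of its family. It is best known as a growth-restraining gene of differentiated tissues. Its level was 340, 303 and 363 FPKM in Ad-Dyrk1b livers. The Ad-EGFP values were 294, 298 and 363 FPKM. The groups overlapped only through Ad-EGFP replicate 3, and replicate 3 was highest in both. The log2 fold change of Ndrg2 was 0.16 ± 0.12, and it was called under none of the 15 alternatives.

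Ndrg3 (ENSMUSG00000027634, chromosome 2, 156927345 to 156992056, minus strand) encodes a family member whose protein is known as an oxygen-regulated substrate of Egln1. Its level was 9.27, 8.18 and 8.46 FPKM in Ad-Dyrk1b livers, and 8.46, 9.47 and 9.62 FPKM in the controls. These 6 values lay close together and the groups overlapped. Its log2 fold change was -0.00086 ± 0.11. Scaled to library totals it was -0.08, and it lay between -0.04 and 0.03 with 1 library left out.

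Ndrg4, the family member best known from brain and heart, is not among the 10 and had few counts. It had 29, 15 and 16 counts in Ad-Dyrk1b and 19, 25 and 19 in Ad-EGFP libraries, which gave -0.10 ± 0.37 in log2 (edgeR adjusted p = 0.880). In FPKM, which scales to gene length, the order of levels in Ad-EGFP livers was Ndrg2 over Ndrg3 over Ndrg1 over Ndrg4, with no overlap between neighbours over the 3 libraries. In Ad-Dyrk1b livers Ndrg1 lay above Ndrg3, again without overlap. Ndrg1 made up 7.99, 8.22 and 5.75% of the summed FPKM of the 4 family members in Ad-Dyrk1b livers, against 1.39, 2.02 and 1.41% in the controls. Ndrg2 held 89.3 to 92.0% of the family total in Ad-Dyrk1b and 94.8 to 95.9% in Ad-EGFP libraries.

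The 5 tested genes whose log2 CPM, centred over the 6 libraries, lay nearest to that of Ndrg1 were Gsta5, Rcan2, Slc6a19, Prom1 and Bcl2l14. The root mean square difference was 0.16 log2 units for Gsta5, a glutathione transferase gene, and 0.16 for Rcan2, a regulator of calcineurin. It was 0.21 for the amino acid transporter gene Slc6a19, 0.23 for Prom1, which encodes the membrane protein prominin-1, and 0.26 for Bcl2l14. Gsta5 stood at 19.7, 16.8 and 10.9 FPKM in Ad-Dyrk1b and 2.51, 4.08 and 3.02 FPKM in Ad-EGFP libraries. Like Ndrg1 it was lowest in replicate 3 of the first group and highest in replicate 2 of the second. Gsta5 has close copies in the genome, so its value is uncertain, and Slc6a19 stood at 0.03 to 0.41 FPKM. This likeness is over 6 libraries in 2 groups and takes in the group difference.

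The mRNAs of both HIF alpha subunits had overlapping levels in the 2 groups. Hif1a (ENSMUSG00000021109, chromosome 12, 73901375 to 73947530, plus strand) stood at 12.5, 14.0 and 11.6 FPKM in Ad-Dyrk1b livers, against 14.7, 17.4 and 13.7 FPKM in Ad-EGFP livers. The means were lower in Ad-Dyrk1b livers, but replicate 2 of that group exceeded Ad-EGFP replicate 3. The log2 fold change was -0.17 ± 0.12, and it was negative with any 1 library left out (-0.28 to -0.07). One overlapping protein-coding model, Gm49321, had 0 counts in every library.

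Epas1 (ENSMUSG00000024140, chromosome 17, 86753700 to 86833410, plus strand) encodes HIF-2 alpha, which is prominent in endothelial cells and in hepatocytes. It stood at 40.4, 36.3 and 39.9 FPKM in Ad-Dyrk1b and 39.1, 43.2 and 35.6 FPKM in Ad-EGFP libraries. The highest and the lowest of the 6 values both belonged to the Ad-EGFP group. Its log2 fold change was 0.07 ± 0.11, and -0.02 when scaled to library totals. Per length, Epas1 exceeded Hif1a in every library, by 2.59 to 3.43 times in Ad-Dyrk1b and 2.49 to 2.66 times in Ad-EGFP livers.

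The prolyl hydroxylase genes differed in their spread. Egln1 (ENSMUSG00000031987, chromosome 8, 124908587 to 124949324, minus strand) encodes the main oxygen sensor of most cells. It stood at 12.04, 10.6 and 14.1 FPKM in Ad-Dyrk1b and 11.8, 15.4 and 13.7 FPKM in Ad-EGFP libraries. The groups overlapped, and the log2 fold change was -0.07 ± 0.13.

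Egln3 (ENSMUSG00000035105, chromosome 12, 54178981 to 54203860, minus strand) encodes a prolyl hydroxylase that is itself a target of HIF. It stood at 12.3, 9.42 and 25.3 FPKM in Ad-Dyrk1b livers. The Ad-EGFP values were 6.58, 6.35 and 9.47 FPKM. The groups met at their edges, where Ad-Dyrk1b replicate 2 lay just under Ad-EGFP replicate 3. Ad-Dyrk1b replicate 3 was 2.34 times the mean of the other 2 Ad-Dyrk1b libraries. For Egln3 the log2 fold change was 1.15 ± 0.42, and 0.61 without that library. Egln3 was not called, and of the 15 alternatives only the fit with the replicate number as a block called it. The share of Egln3 against Egln1 (ratio of FPKM) was 1.02, 0.893 and 1.80 in Ad-Dyrk1b and 0.558, 0.412 and 0.691 in Ad-EGFP libraries.

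**Figure D2:**
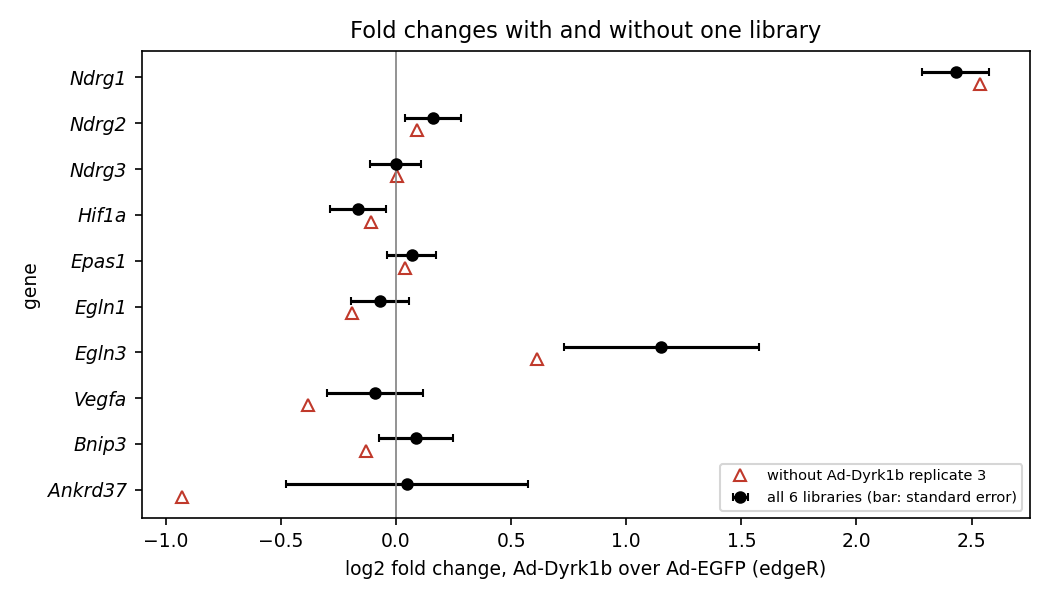
Log2 fold change of the 10 genes, Ad-Dyrk1b over Ad-EGFP, from edgeR with all 6 libraries (black circles, bars for the standard error) and without Ad-Dyrk1b replicate 3 (open red triangles). Ndrg1 moves from 2.43 to 2.54, whereas Egln3 moves from 1.15 to 0.61 and Ankrd37 from 0.05 to -0.93.

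Bnip3, Ankrd37, Vegfa and Egln3 were each highest in Ad-Dyrk1b replicate 3, and their upstream sequences are shown because all are established HIF targets. HIF binds the core letters ACGTG or GCGTG. Both were searched on both strands in the stretch from 250 to 31 bases before each start in RefSeq (GRCm38.p6, the mm10 assembly), and capitals mark each match. The letters CACGTG count as 2 overlapping matches and are also the core of the E-box, which other factors bind. All 4 genes lie on the minus strand, and sequences read 5′ to 3′ toward the gene.
Bnip3, chr7:138909537-138909756: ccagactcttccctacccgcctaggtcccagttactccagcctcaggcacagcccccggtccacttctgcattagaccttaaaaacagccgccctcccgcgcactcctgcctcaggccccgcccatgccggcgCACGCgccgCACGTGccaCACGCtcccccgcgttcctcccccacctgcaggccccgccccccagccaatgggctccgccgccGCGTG
Ankrd37, chr8:45999881-46000100: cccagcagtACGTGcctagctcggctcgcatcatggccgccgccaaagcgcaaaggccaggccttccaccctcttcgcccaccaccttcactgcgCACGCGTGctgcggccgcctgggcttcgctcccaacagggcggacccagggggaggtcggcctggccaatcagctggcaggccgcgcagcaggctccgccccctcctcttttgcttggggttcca
Egln3, chr12:54203905-54204124: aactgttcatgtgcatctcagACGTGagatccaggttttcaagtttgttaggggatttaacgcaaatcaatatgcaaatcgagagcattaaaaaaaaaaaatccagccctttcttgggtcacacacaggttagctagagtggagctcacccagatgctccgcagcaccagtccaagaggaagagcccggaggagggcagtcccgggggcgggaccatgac
Vegfa, chr17:46032408-46032627: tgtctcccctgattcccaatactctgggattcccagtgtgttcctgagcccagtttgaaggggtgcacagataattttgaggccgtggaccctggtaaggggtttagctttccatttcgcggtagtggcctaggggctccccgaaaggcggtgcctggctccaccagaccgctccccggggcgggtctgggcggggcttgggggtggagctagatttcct
The Bnip3 stretch holds 5 matches, at 117, 108, 107, 99 and 35 bases before the start, of which those at 108 and 107 form a CACGTG. Ankrd37 has 3, at 241, 155 and 152 bases, the latter 2 overlapping. Egln3 has 1, at 229 bases, and the stretch of the first Vegfa start has none. The stretch of another Vegfa start, not shown, has 2, at 218 and 211 bases, and overlaps a Vegfa exon. In all 32851 promoter stretches of the same 220 bases, 34.7% held at least 1 match, 4.86% held 3 or more and 5.01% held CACGTG. Of the 10 genes 8 are in the RefSeq table, each with a match before at least 1 of its starts, as have 53.8% of the 10491 tested genes in that table. Among those not shown, Hif1a, which was lowest in Ad-Dyrk1b replicate 3, has 3 matches, of which 2 form a CACGTG. Egln1, Ndrg2 and Ndrg3 have up to 2 before a start. Whether matches go with the high values of replicate 3 was not tested. Ndrg1 and Epas1 have no entry. A match is a string of letters and not a measured binding site.

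Bnip3 (ENSMUSG00000078566, chromosome 7, 138890836 to 138909519, minus strand) encodes a protein of the outer mitochondrial membrane that directs mitochondria to autophagy. It stood at 160, 174 and 246 FPKM in Ad-Dyrk1b livers, and at 180, 212 and 189 FPKM in the controls. The Ad-Dyrk1b group thus held the 2 lowest values and the highest. The log2 fold change was 0.09 ± 0.16, and -0.13 without Ad-Dyrk1b replicate 3. Scaled to library totals it was -0.0021, so no direction can be given. Bnip3l, its close relative with the same role, which stands in 2 of the pathway lists used below, had 0.09 ± 0.15 (edgeR adjusted p = 0.739).

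Vegfa (ENSMUSG00000023951, chromosome 17, 46016993 to 46032369, minus strand) encodes the main growth factor of blood vessels, which hepatocytes supply to the endothelium of the sinusoids. It stood at 19.2, 16.3 and 29.0 FPKM in Ad-Dyrk1b livers, against 27.7, 22.2 and 25.0 FPKM in Ad-EGFP livers. Replicates 1 and 2 of Ad-Dyrk1b lay under all 3 Ad-EGFP libraries, and replicate 3 lay over them. The log2 fold change was -0.09 ± 0.21, and -0.38 without Ad-Dyrk1b replicate 3.

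Ankrd37 (ENSMUSG00000050914, chromosome 8, 45996902 to 46005707, minus strand) encodes a small ankyrin repeat protein and is one of the most regular HIF target genes across cell types. It stood at 1.81, 1.96 and 7.36 FPKM in Ad-Dyrk1b replicates 1, 2 and 3, from 32, 36 and 122 counts. In Ad-EGFP replicates 1, 2 and 3 it stood at 3.25, 3.88 and 4.26 FPKM, from 54, 63 and 68 counts. The pattern was that of Vegfa but wider, with replicate 3 at 3.90 times the mean of the other 2 Ad-Dyrk1b libraries. The log2 fold change was 0.05 ± 0.53 with all libraries and -0.93 without Ad-Dyrk1b replicate 3. Exons of Lrp2bp and Ufsp2 on the opposite strand overlap Ankrd37, and no source used here says whether strand was counted. Lrp2bp fell by 2.14 ± 0.27 on the log2 scale (edgeR adjusted p = 0.000384), with 25, 43 and 32 counts in Ad-Dyrk1b and 169, 159 and 108 in Ad-EGFP libraries. Ufsp2 stood at 26.1 to 29.3 FPKM in all libraries. Lrp2bp did not share the high value of replicate 3. Like Ankrd37, it was lower in Ad-Dyrk1b replicates 1 and 2 than in every Ad-EGFP library. The part of Lrp2bp in the Ankrd37 counts was not tested.

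Of the 10 genes, 5 were highest in Ad-Dyrk1b replicate 3 (Ndrg2, Egln3, Vegfa, Bnip3 and Ankrd37, but not Ndrg1, Ndrg3, Hif1a, Epas1 or Egln1), as were 13.6% of all tested genes. The corresponding share for the other libraries ran from 6.66% (Ad-Dyrk1b replicate 2) to 22.4% (Ad-EGFP replicate 2). The same library was the highest in 15 of 20 tested HIF target genes of glucose use, in 13 of 42 other HIF targets, and in all 6 erythroid markers. It was also highest in 6 of 13 pericentral markers, 5 of 12 endothelial markers and 3 of 8 VEGF genes. In contrast, it was highest in 1 of 16 HIF partners and oxygen-sensing genes, 1 of 10 mitophagy genes and 0 of 8 hepatocyte markers. Further genes with their highest level in that library were the vasodilator gene Adm, Pdk1, which restrains entry of pyruvate into mitochondria, and Cited2, an inhibitor of HIF. Cited2 and Epo are named here after their values were seen. Adm stood at 7.64 FPKM there and at 2.29 to 4.22 FPKM in the 5 other libraries. Pdk1 stood at 20.3 against 9.72 to 11.4 FPKM, and Cited2 at 20.1 against 10 to 11.7 FPKM. The erythropoietin gene Epo had 11 counts there and 0 or 1 count in each other library, too few for the test. The part of blood in these values was not tested.

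**Figure D3:**
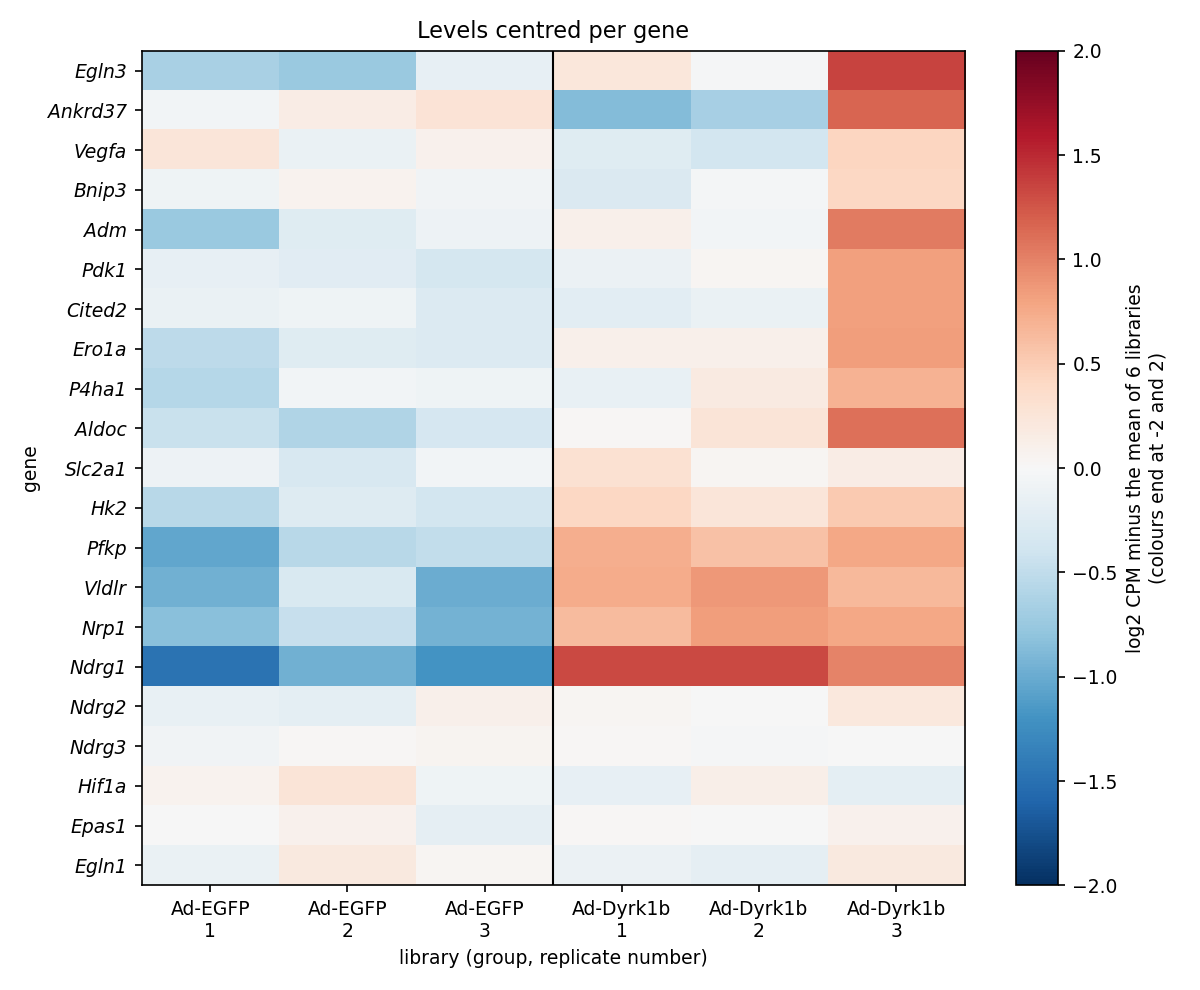
Log2 CPM of the 10 genes and 11 further pathway genes, chosen for display after their values were seen, minus each gene's mean over the 6 libraries (columns; red higher, blue lower). Ndrg1, Nrp1, Vldlr and Pfkp are high in all 3 Ad-Dyrk1b columns, whereas Egln3, Ankrd37, Adm and Cited2 are high in Ad-Dyrk1b replicate 3.

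The wider pathway was read from lists that hold 96 further tested genes. These lists too were drawn up with earlier results of these data known. Their shares and adjusted p-values, here and below, are therefore a description. Of the 96 genes, 17 were called higher (17.7%, against 7.36% of all genes) and 3 lower (3.13%, against 4.81%). Their median log2 fold change was 0.20. The counts of higher calls were 10 without Ad-Dyrk1b replicate 2, 8 without Ad-EGFP replicate 1 and 8 without Ad-EGFP replicate 3, and 7 on log2(FPKM + 1). The calls of 6 genes held whichever library was left out: Hk2, Pfkp, Insig2, Vldlr, Nrp1 and Nrp2, all higher.

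Among 16 tested HIF partners and oxygen-sensing genes, none was called higher and 2 lower, against 7.36% and 4.81% of all tested genes. At an unadjusted p under 0.05 in edgeR, 0 were higher and 3 lower. Egln2, the third prolyl hydroxylase, stood at 19.8, 17.8 and 23.2 FPKM in Ad-Dyrk1b and 27.6, 26.8 and 32.6 FPKM in Ad-EGFP libraries. Its log2 fold change was -0.43 ± 0.12 (edgeR adjusted p = 0.0370), a call that fell away on omission of replicate 1 or 2 of Ad-Dyrk1b or of 1 or 3 of Ad-EGFP (adjusted p 0.0181 to 0.127 over the 6 omissions). Exons of Cyp2t4 on the opposite strand overlap Egln2. Arnt, the partner of both alpha subunits, had -0.41 ± 0.12 (edgeR adjusted p = 0.0494), a call kept only without Ad-Dyrk1b replicate 2 (0.0437 to 0.151). The genes of the ubiquitin ligase subunit Vhl and of the asparaginyl hydroxylase Hif1an had -0.15 ± 0.13 (edgeR adjusted p = 0.501) and -0.23 ± 0.12 (edgeR adjusted p = 0.246), neither called. Hif3a, whose product can oppose the other alpha subunits, had 17 to 45 counts per library and -0.61 ± 0.37 (edgeR adjusted p = 0.300).

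HIF target genes of glucose uptake and glycolysis had 5 of 20 members called higher and none lower, against 7.36% and 4.81% of all tested genes. Their median log2 fold change was 0.33. At an unadjusted p under 0.05 in edgeR, 11 were higher and 1 lower (of all 13201 tested genes, 1970 and 1787). Changes below are on the log2 scale. Pfkp, the platelet-type phosphofructokinase, stood at 7.90, 5.96 and 7.58 FPKM in Ad-Dyrk1b and 2.25, 2.86 and 3.20 FPKM in Ad-EGFP libraries. The groups were well apart, and it rose by 1.38 ± 0.16 (edgeR adjusted p = 0.000201). Exons of Pitrm1 on the opposite strand overlap Pfkp. Hk2, a hexokinase scarce in normal liver, rose by 0.79 ± 0.15 (edgeR adjusted p = 0.00447), from 1.997 ± 0.226 to 3.23 ± 0.403 FPKM (SD, n = 3 each). The aldolase gene Aldoc rose by 1.003 ± 0.26 (edgeR adjusted p = 0.0312), and by 0.61 without Ad-Dyrk1b replicate 3. Its call was lost without that library or any 1 Ad-EGFP library (0.0118 to 0.110). Pgam1 and Pgk1, with adjusted p from edgeR of 0.0321 and 0.0443, rose by 0.39 ± 0.11 each. Pgam1 kept its call only without Ad-Dyrk1b replicate 1, and Pgk1 lost it without any 1 library. Slc2a1, the glucose transporter most tied to hypoxia, Ldha (lactate dehydrogenase) and Pdk1 had 0.32 ± 0.12, 0.11 ± 0.13 and 0.55 ± 0.23, and none was called (edgeR adjusted p = 0.0883, 0.595 and 0.164).

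Of 42 other HIF targets 9 were called higher and 1 lower, against 7.36% and 4.81% of all tested genes. The median log2 fold change of these 42 was 0.23. Vldlr, a lipoprotein receptor, stood at 3.76, 3.30 and 3.28 FPKM in Ad-Dyrk1b and 1.14, 1.91 and 1.25 FPKM in Ad-EGFP libraries. It rose by 1.49 ± 0.19 (edgeR adjusted p = 0.000458). Insig2, which holds back sterol synthesis, rose by 0.78 ± 0.15 (edgeR adjusted p = 0.00577) and was already abundant, at 81.3 ± 21.3 FPKM in Ad-EGFP livers (SD, n = 3). The mitochondrial adenylate kinase gene Ak4 rose by 0.49 ± 0.11 (edgeR adjusted p = 0.0133), a call that fell away on omission of Ad-Dyrk1b replicate 1 or of Ad-EGFP replicate 3 (0.0208 to 0.0595). P4ha2, a collagen prolyl hydroxylase, rose by 0.88 ± 0.20 (edgeR adjusted p = 0.0134), a call that fell away on omission of Ad-Dyrk1b replicate 3 or of Ad-EGFP replicate 1 or 3 (0.00634 to 0.0517). The remaining calls were Car9, Plod1, Ero1a, Hilpda and Tgfb3, higher, and Bhlhe40, lower, and each was lost without at least 3 of the 6 libraries in turn. Adm, with 0.80 ± 0.30 (edgeR adjusted p = 0.108), and the lipase inhibitor gene Angptl4, with -0.29 ± 0.25 (edgeR adjusted p = 0.495), were not called.

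**Figure D4:**
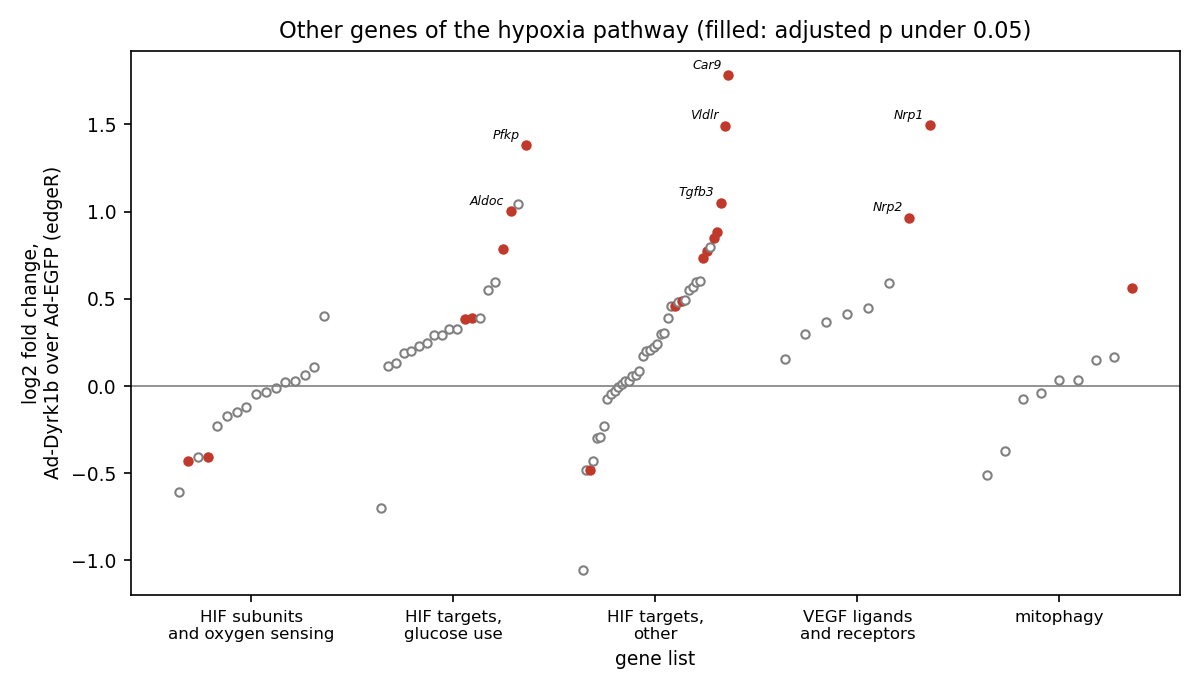
Log2 fold change of the tested pathway genes outside the 10, by list, ordered by size within a list (filled red, edgeR adjusted p under 0.05; open grey, not called). Car9 (1.78, from 2 to 20 counts per library), Nrp1 (1.496), Vldlr (1.49) and Pfkp (1.38) are the highest filled points, and the HIF and oxygen-sensing list has its 2 filled points below 0.

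Of 8 tested genes of VEGF ligands, receptors and co-receptors 2 were called higher, against 7.36% of all tested genes. The median log2 fold change of these 8 was 0.43. Nrp1, a co-receptor for VEGF and semaphorins, stood at 10.9, 11.5 and 11.4 FPKM in Ad-Dyrk1b and 3.86, 5.18 and 3.67 FPKM in Ad-EGFP libraries. The groups were far apart and the log2 fold change was 1.496 ± 0.14 (edgeR adjusted p = 3.76e-05). Nrp2, the second co-receptor, rose by 0.97 ± 0.14 (edgeR adjusted p = 0.000958), from 1.58 ± 0.125 to 2.89 ± 0.192 FPKM (SD, n = 3 each). The signalling receptor genes Kdr and Flt1 had 0.37 ± 0.18 (edgeR adjusted p = 0.198) and 0.59 ± 0.25 (edgeR adjusted p = 0.145), neither called. Endothelial markers were called in 0 of 12 cases by edgeR, with 5 higher at an unadjusted p under 0.05. All 12 had a log2 fold change above 0, with a median of 0.37. Kdr stands in the VEGF list as well. Their summed level was 289 to 407 CPM in Ad-Dyrk1b and 214 to 324 CPM in Ad-EGFP livers, with none at 0. In such bulk samples more cells of a type and more RNA per cell cannot be told apart. Of 10 tested mitophagy genes 1 was called higher, near the 7.36% of all tested genes, and their median log2 fold change was 0.03. Map1lc3a, an autophagosome protein, rose by 0.56 ± 0.13 (edgeR adjusted p = 0.0180), a call lost without Ad-Dyrk1b replicate 1 or 2 (0.00616 to 0.0802).

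Markers of other cells and zones are given beside these genes, whether or not they moved with the groups. Of 13 pericentral markers 9 were called higher and none lower, against 7.36% and 4.81% of all tested genes. These shares are the measure for the calls of the lists below too. The summed level of pericentral markers was 4686 to 5455 CPM in Ad-Dyrk1b and 2552 to 2930 CPM in Ad-EGFP livers. Of 13 periportal markers 3 were called higher and 1 lower, 6 had a log2 fold change above 0, and the median was -0.03. Their summed level was lower, at 58613 to 74367 CPM against 74419 to 77518 CPM, without overlap but nearly touching. Alb stands in both this list and the hepatocyte list, so the periportal and hepatocyte sums are not independent. Both sums ranked the libraries in the same order. The lower periportal sum is therefore not read as a fall of the periportal markers gene by gene. Bile duct markers summed to 317 to 434 CPM against 201 to 248 CPM, with 1 of 6 called higher. Kupffer cell markers summed to 914 to 1226 CPM against 591 to 1154 CPM with none of 7 tested genes called by edgeR, and 2 higher at an unadjusted p under 0.05. Stellate cell markers summed to 190 to 222 CPM against 214 to 404 CPM, with 0 of 8 called by edgeR and 1 lower at an unadjusted p under 0.05. Erythroid markers summed to 884 to 3675 CPM against 525 to 872 CPM, with 0 of 6 called by edgeR and 0 at an unadjusted p under 0.05. Lymphocyte markers summed to 15.8 to 26.4 CPM against 12.3 to 19.5 CPM, with 0 of 7 tested genes called by edgeR and 2 higher at an unadjusted p under 0.05. Of the 8 hepatocyte markers 0 were called by edgeR, with 1 higher and 2 lower at an unadjusted p under 0.05. A log2 fold change above 0 was seen in 12 of 13 pericentral, 4 of 6 bile duct and 6 of 7 Kupffer cell markers. The same held for 0 of 8 stellate cell, 6 of 6 erythroid, 6 of 7 lymphocyte and 2 of 8 hepatocyte markers. No pericentral, periportal, bile duct, Kupffer cell, stellate cell, erythroid or hepatocyte marker was at 0 in any library. The part of these cells and zones in the level of Ndrg1 was not tested.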

How the data were processed

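RNA of 6 liver samples was sequenced on an Illumina NovaSeq after mRNA enrichment, per the labels. The deposited table gives whole-number counts per gene and library, with no normalization, per the file headers. It also gives FPKM values by the authors and their group means, per the file headers. A log2 ratio between groups and the authors' p-value, raw and adjusted, complete it. Genome build mm10 and DESeq2 are named, without versions, per the submitters' processing notes. Aligner, counter and strand setting: not given in the sources used here. Coordinates are from GENCODE mouse release M21 of the same build.

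Libraries were grouped by title. The groups were compared with edgeR 4.0.16 (R 4.3.3) on the counts, with TMM scaling, filterByExpr (minimum count 10, minimum total count 15), then a robust fit and its quasi-likelihood F-test (two-sided). Benjamini-Hochberg adjustment ran over the 13201 tested genes, with calls under 0.05. Standard errors are the fold change over the root of F. Counts of 13201 genes were simulated for this comparison, 200 with a known change: 88% of 2-fold and 99% of 4-fold changes were called, and 6.5% of calls were false. The changed genes were drawn only from those with a mean count well over the filter minimum. The 88% and 99% therefore do not cover genes with few counts. The labels name no separate animals, so a p-value here reflects only how these samples vary, possibly for technical reasons. No pair of libraries of a group agreed within sampling noise. In all, 3 counts equal 0.150 to 0.173 CPM, which covers counting error only.

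The members and lists were chosen with earlier results of these data known. Named genes are Dyrk1b, the 10 genes, fixed pathway genes and up to 4 called genes of smallest p per list, and any others are said to be named after their values were seen, as were Lrp2bp, Ufsp2, P4ha1, Cited2, Epo, Car9, Plod1, Ero1a, Hilpda, Tgfb3 and Bhlhe40. Tf was not analysed here, and some items are not reported here. Alternatives were DESeq2 1.42.0, limma 3.58.1 (voom on counts, trend on log2 FPKM with a pseudocount of 1 or 0.1), 2 other scalings, no filter, a replicate block and leaving out each library.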

Additional observations from a re-analysis of the deposited data

How the results depend on the processing

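Ndrg1 was called under all 15 alternatives, Egln3 under 1 and the other 8 genes of the 10 under none. Scaled to library totals, 1051 genes were lower and 5 other pathway genes were lower. With limma-trend, log2(FPKM + 1) and log2(FPKM + 0.1) gave 556 and 553 higher genes, and 7 higher pathway genes each. Without the low-value filter, log2(FPKM + 1) gave 384 higher and 421 lower genes, with 5 higher and 0 lower pathway genes. At an unadjusted p under 0.05 edgeR had 29 of the 96 pathway genes higher and 8 lower, against 1970 and 1787 of all 13201. With 1 library left out, 612 to 800 genes were higher and 294 to 461 lower, 1 of the 10 genes was higher and 0 lower each time, and 8 to 14 pathway genes were higher and 0 to 2 lower. Causes of these shifts were not tested.

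With the replicate number as a block, 1109 genes were higher and 774 lower, 2 of the 10 genes were higher (Ndrg1 and Egln3, the latter with 1.06) and 6 pathway genes were lower. Deviations of same-numbered libraries correlated at 0.024, 0.17 and 0.11, and Ad-Dyrk1b replicate 1 correlated more with Ad-EGFP replicate 3 (0.085). Not every pair exceeded 0.1, so the numbers were not taken to pair the samples.

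Of the 10 genes, 6 that were not called changed sign under at least 1 alternative (Ndrg3, Epas1, Egln1, Vegfa, Bnip3 and Ankrd37), so no direction is given for them. Among the 26 other named genes compared across all settings, the sign changed for Bnip3l and Ndrg4. Cited2, outside those 26, had 0.40 with all libraries and -0.012 without Ad-Dyrk1b replicate 3. Bnip3l was -0.0047 with library totals, -0.00047 on log2(FPKM + 1) with or without the filter, -0.00031 on log2(FPKM + 0.1), and -0.050 to 0.20 with 1 library left out. Ndrg4 ranged from -0.42 to 0.069 with 1 library left out. Depth limits the precision of Ndrg4, at 15 to 29 counts per library.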
